A study of Bombyx mori with 3 samples.

Results

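Antimicrobial peptide genes other than the gloverins were examined in the fat body of Bombyx mori larvae that had eaten phoxim. Members were the gene probes of the arrays whose gene description, or protein match where no gene description was given, named a cecropin, attacin (also called nuecin), moricin, lebocin, enbocin, defensin or an antibacterial or antimicrobial peptide, and not a gloverin. This gave 6 of 23229 gene probes: 1 for attacin, 1 for moricin, 1 for lebocin, 1 for cecropin E and 2 for cecropin D. No probe carried the words enbocin or defensin, so those families were not analysed here. The cecropin D probes BGIBMGA000017 and sw18189 point to the same named peptide and are not independent members.

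The treated larvae, of strain p50 and mixed sex, ate, from day 3 of the fifth instar, mulberry leaves that had been in a 4 µg/mL solution of phoxim, while leaves for the control larvae had been in water. Phoxim is an organophosphate insecticide, a class that blocks acetylcholinesterase. Fat bodies were dissected 24 h later, and each of 3 two-colour arrays carried phoxim RNA and control RNA with the same replicate number. The experiment was done 3 times with 30 larvae each and the design text calls the replicates biological, but the labels do not say how many larvae were pooled for an RNA. RNA of a whole dissected organ was measured, in which fewer cells of a type and less RNA per cell cannot be told apart.

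In insects most hemolymph proteins are made by the fat body, which during infection secretes antimicrobial peptides. Bacterial and fungal wall components are sensed by peptidoglycan and glucan recognition proteins, the Toll and Imd pathways pass the signal on, and NF-kappa-B factors such as Dorsal and Relish switch the peptide genes on. Cecropins and moricin are helical peptides that disrupt bacterial membranes, attacins are larger glycine-rich proteins that act on Gram-negative bacteria, and lebocin is a proline-rich peptide described from the silkworm. By RefSeq transcript accession, 4 of the 6 probes matched a current gene in the assembly ASM3026992v2, and the lebocin and sw18189 probes did not. The matches were Attacin1, Mor (moricin), CecD (cecropin D, through BGIBMGA000017) and LOC101739821 with the synonym CecE (cecropin E). In that assembly the cecropin D and cecropin E genes are close neighbours, with 1 protein-coding gene, Enb3, between them.

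The probes also differed in the sequence records behind them. The files' annotation lists 89 expressed sequence tags for the attacin probe, of which 43 come from a library named swd and 40 from one named swc. It lists 6 for lebocin, 5 for moricin and 2 for cecropin D (BGIBMGA000017). The sw18189 probe rests on 1 tag, from a virus-infected ovary library, and the cecropin E probe on 1 tag from an embryo library.

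A probe was called above background in a channel when its intensity exceeded the 95th percentile of the negative control spots of that array and dye. It was tested if at least 1 channel passed on each array, which 6154 probes and 5 of the 6 members did. Cecropin E did not. The share of gene probes above background lay between 27.0% and 44.4% in Cy5 and between 18.9% and 27.2% in Cy3. The dyes need care on replicate 2: by the labels Cy5 carried phoxim RNA throughout, but the header of the second replicate's file gives Cy3. The header was followed. The authors' deposited ratio runs with the header order (Spearman's rho = 0.84 across 6154 probes, which are not independent replicates), but it comes from the same file and does not settle which RNA carried which dye. In the header order 673 tested probes had an unadjusted limma p under 0.05, beside 297 as labelled. The dye order itself was not tested. Ratios are given as log2 of phoxim over control, and levels are log2 intensities after normalization. With replicate 2 as labelled its ratios all change sign. For the members and gloverin probes, the values that turn with it are given beside the results. Those counts were added after seeing the data. Values of the signalling list, the nearest probes and the tissue lists are given in the header order, with few exceptions.

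No member passed the test. With limma's moderated test and Benjamini-Hochberg adjustment over 6154 probes, 0 of 5 members and 0 of all tested probes (0%) reached the threshold of 0.05. The lowest adjusted p of any probe was 0.283. At an unadjusted p under 0.05, 2 members were lower in phoxim RNA (attacin and the BGIBMGA000017 probe) and 0 were higher, beside 4.81% of all tested probes lower and 6.13% higher. In the header order, the members' ratios differed between arrays, but not in the same way for every member. On replicates 2 and 3 all 5 measured members had a log2 ratio below 0, as did 33.7% of all tested probes, and on replicate 1 only 1 member, BGIBMGA000017, was below 0. The other 4 were thus above 0 on replicate 1 and below 0 on the rest, as were 16.6% of tested probes. Of these, sw18189 was near 0 on replicates 2 and 3 (-0.04 and -0.15). BGIBMGA000017 was lowest on replicate 1 (-1.11). In the labelled order 0 of 5 members were below 0 on replicate 2, beside 45.1% of tested probes, and 0 of 5 were below 0 on both replicates 2 and 3, beside 16.3%. The member medians were 0.44, -0.57 and -1.35 on replicates 1, 2 and 3, against 0.13, -0.06 and 0.00 for all tested probes. The mean ratio was below 0 for 4 of the 5 members, beside 49.7% of tested probes, and the median of the means was -0.85, beside 0.00 for all tested probes. That median was 0.12 with replicate 2 as labelled, where 2 of 5 means were below 0 (46.0% of tested probes), and -1.42 without replicate 1. Since the probes were chosen with earlier results of these data known, these counts describe the members and are no test of them.

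**Figure D1:**
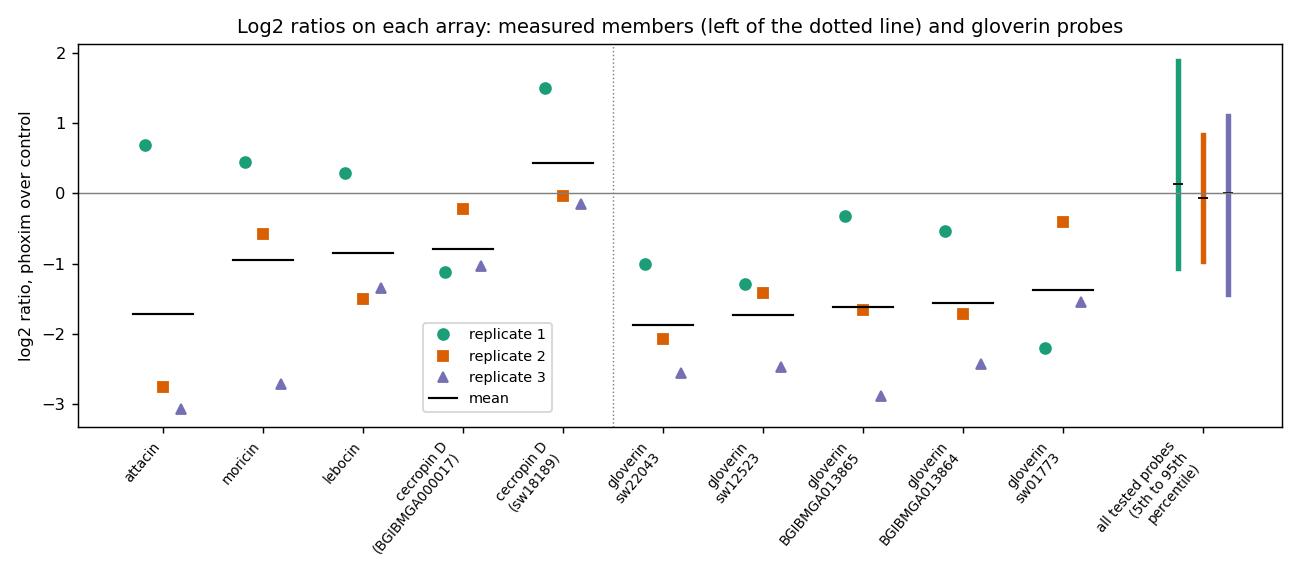
Log2 ratio of phoxim over control (vertical axis) for the 5 measured members, left of the dotted line, and the 5 gloverin probes, with 1 point per array, the mean as a bar, and at the right the 5th to 95th percentile of 6154 tested probes with a tick at the median. Attacin, moricin, lebocin and the sw18189 probe are above 0 on replicate 1 only, while each gloverin probe is below 0 on all 3 arrays, with replicate 2 turned by the dyes of its header.

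Attacin had the most negative mean of the members. Its probe read deposited intensities of 1345, 677 and 1296 in phoxim RNA of replicates 1, 2 and 3, against 819, 3491 and 8900 in control RNA. After normalization the levels were 10.37, 9.53 and 10.09 in phoxim RNA and 9.69, 12.29 and 13.16 in control RNA. In the header order the groups overlap through the control of replicate 1, which was the lowest control by a wide margin. The control samples of replicates 2 and 3 were then above every phoxim sample. With replicate 2 as labelled, its phoxim level was 12.29 and its control level 9.53, the lowest control. The log2 ratios were 0.69, -2.75 and -3.07, with a mean of -1.71 ± 2.09 (SD, n = 3) and an adjusted limma p of 0.453. The 95% interval was -3.40 to -0.02. It comes from limma's moderated variance, in which the probe's own variance is drawn toward that of the other tested probes, and not from this SD alone. Only 0.26% of tested probes had a lower mean, and 98.9% had a smaller SD between arrays. Without replicate 1 the mean was -2.91 (adjusted p = 0.156), without replicate 3 it was -1.03, and with replicate 2 as labelled it was 0.12 (adjusted p = 0.992).

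Moricin, which has strong activity against Gram-positive and Gram-negative bacteria, had intensities of 1448, 1546 and 1547 in phoxim RNA, against 1070, 1652 and 8179 in control RNA. Its levels were 10.49, 10.67 and 10.33 in phoxim RNA and 10.05, 11.24 and 13.04 in control RNA. In the header order the 3 phoxim samples were within 0.34 of each other, whereas the controls covered 2.99 and lay on both sides of them. With replicate 2 as labelled, its phoxim level was 11.24 and its control level 10.67. The log2 ratios were 0.44, -0.57 and -2.71, with a mean of -0.95 ± 1.61 (SD, n = 3) and an adjusted limma p of 0.577. The mean rests on replicate 3, without which it was -0.06 (adjusted p = 0.998), and without replicate 1 it was -1.64.

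Lebocin read 524, 380 and 430 in phoxim RNA, against 414, 774 and 1153 in control RNA. Levels were 9.13, 8.73 and 8.80 in phoxim RNA and 8.83, 10.22 and 10.15 in control RNA. In the header order the control of replicate 1 was again at the phoxim level and the other controls were above it. With replicate 2 as labelled, its phoxim level was 10.22 and its control level 8.73, the lowest control. The log2 ratios were 0.30, -1.49 and -1.35, with a mean of -0.85 ± 1.00 (SD, n = 3) and an adjusted limma p of 0.505. Without replicate 1 the mean was -1.42, and with replicate 2 as labelled it was 0.15 (adjusted p = 0.981).

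Cecropin D was read by a pair of probes. BGIBMGA000017 read 98, 195 and 87 in phoxim RNA, against 344, 120 and 315 in control RNA, and its phoxim signal was above background on 2 of 3 arrays. Its levels of 7.447, 7.779 and 7.409 in phoxim RNA were all below the levels of 8.558, 7.996 and 8.436 in control RNA. It was the only measured member whose groups did not overlap, with phoxim below control, as for 6.19% of all tested probes. On replicate 2 its phoxim signal was under the Cy3 limit of 307.1, so that the order of the groups there rests on a level not above background. It was also the only member with a negative ratio on all 3 arrays, beside 17.1% of tested probes. With replicate 2 as labelled 0 members were negative on all arrays (9.51% of tested probes) and 0 had all phoxim levels below all control levels (3.05%). With both channels required above background, 4 members remained and 0 of them were negative on all arrays. That filter removes BGIBMGA000017 itself, so this count says nothing about its ratios. No measured member was positive on all 3 arrays (18.2% of tested probes) or had all phoxim levels above all control levels (7.77%). The log2 ratios were -1.11, -0.22 and -1.03, with a mean of -0.78 ± 0.49 (SD, n = 3) and an adjusted limma p of 0.438. The 95% interval, again from limma's moderated variance, was -1.52 to -0.05.

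The sw18189 probe, matched to the cecropin D precursor, read 782, 410 and 746 in phoxim RNA, against 223, 257 and 799 in control RNA. Its levels were 9.63, 8.83 and 9.50 in phoxim RNA and 8.13, 8.87 and 9.65 in control RNA, and the groups overlapped. The log2 ratios of 1.50, -0.04 and -0.15 had a mean of 0.44 ± 0.92 (SD, n = 3), with an adjusted limma p of 0.713, and the mean was -0.10 without replicate 1 and 0.73 without replicate 3. The ratio of sw18189 exceeded that of BGIBMGA000017 on each array, by 2.61, 0.18 and 0.87 (mean 1.22 ± 1.25, SD, n = 3). An exact two-sided sign-flip permutation test gave p = 0.25, the smallest that 3 arrays allow, so the test could not pass. With replicate 2 as labelled the difference there was -0.18 and the mean 1.10 ± 1.41 (SD, n = 3, exact p = 0.5). Whether either probe reads other cecropin transcripts was not tested.

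Cecropin E was outside the test. Its control signal was below the background limit on all 3 arrays, with intensities of 54, 83 and 718 in phoxim RNA, against 90, 67 and 68 in control RNA. The phoxim signal of replicate 1 was barely above the Cy5 limit of 46.9, that of replicate 2 was below the Cy3 limit of 307.1, and that of replicate 3 was far above the Cy5 limit of 31.8. The phoxim samples thus held 1 bright reading and a pair at or near background. Averaged over the 3 arrays, the phoxim level was at least 1.06-fold higher than control, a bound that takes the lowest signal above background, or the probe's own where higher, for the control and is open to dye bias. The bound rests on replicate 3: without it the level averaged 6.93 in phoxim RNA and 7.31 in control RNA.

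**Figure D2:**
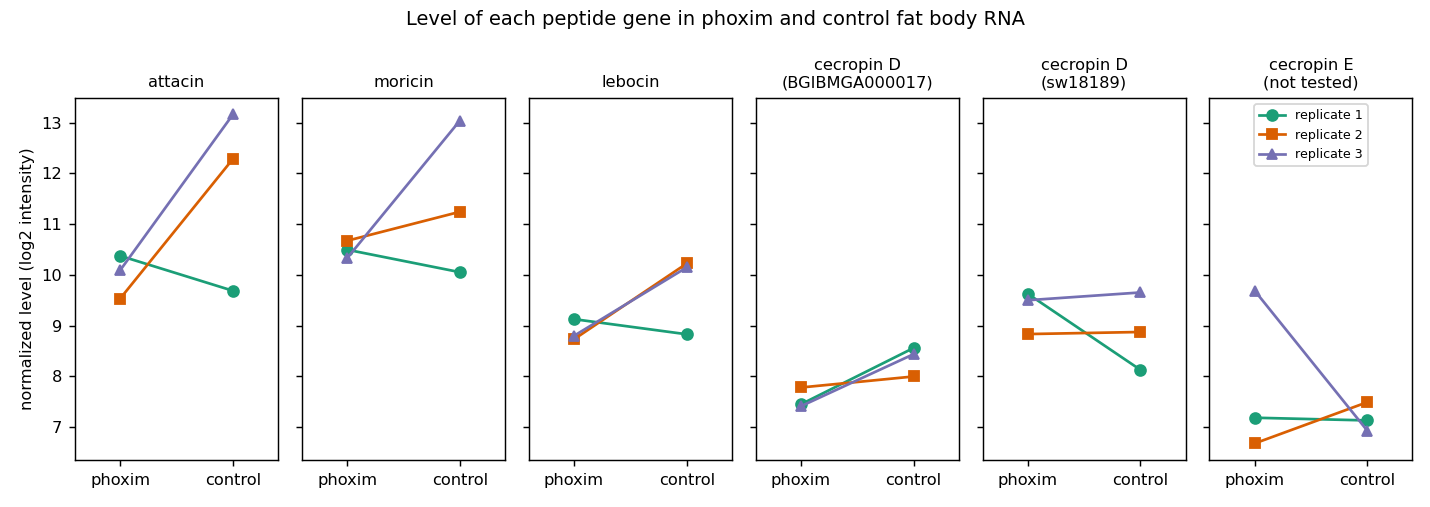
Normalized log2 intensity (vertical axis) of each member in phoxim RNA, left, and control RNA, right, in each panel, with 1 line per array joining its 2 RNAs. For attacin, moricin and lebocin the controls spread wider than the phoxim samples, with the control of replicate 1 lowest. These levels follow the header order of replicate 2, and as labelled the replicate 1 control is lowest for moricin only. For cecropin E only the phoxim sample of replicate 3 stands out.

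Levels of the 5 measured members varied more between replicates in control RNA than in phoxim RNA. Cecropin E, outside the test, went the other way, with an SD of 1.614 in phoxim RNA and 0.285 in control RNA. Its control signal was below the background limit on all 3 arrays. In all 5 measured members the SD of the level between replicates was larger in control RNA, beside 65.4% of all tested probes. For attacin the SD was 0.43 in phoxim RNA and 1.81 in control RNA, and for moricin it was 0.17 in phoxim RNA and 1.50 in control RNA. Lebocin had 0.21 in phoxim RNA and 0.78 in control RNA. The SD was 0.20 in phoxim RNA and 0.30 in control RNA for BGIBMGA000017, and 0.43 in phoxim RNA and 0.76 in control RNA for sw18189. The phoxim signal of BGIBMGA000017 was above background on only 2 of 3 arrays. The median SD over the members was 0.21 in phoxim RNA and 0.78 in control RNA, while over all tested probes it was 0.31 in phoxim RNA and 0.42 in control RNA. The control SD of attacin exceeded that of 98.9% of tested probes, that of moricin 97.8%, that of lebocin 83.5%, that of sw18189 82.4% and that of BGIBMGA000017 30.4%. The attacin control of replicate 3 stood 3.48 above that of replicate 1 on the log2 scale. On replicates 1 and 3, which share a dye order, the control values lay further apart than the phoxim values in 5 of 5 members, beside 53.2% of all tested probes. With replicate 2 as labelled the control SD was the larger in 5 of 5 members, beside 54.3% of all tested probes, but the median SD of the members was then 0.49 in phoxim RNA and 0.79 in control RNA. For lebocin the SDs were then 0.75 in phoxim RNA and 0.79 in control RNA. These last 2 comparisons were chosen after seeing the data, and no test of the spreads was made.

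**Figure D3:**
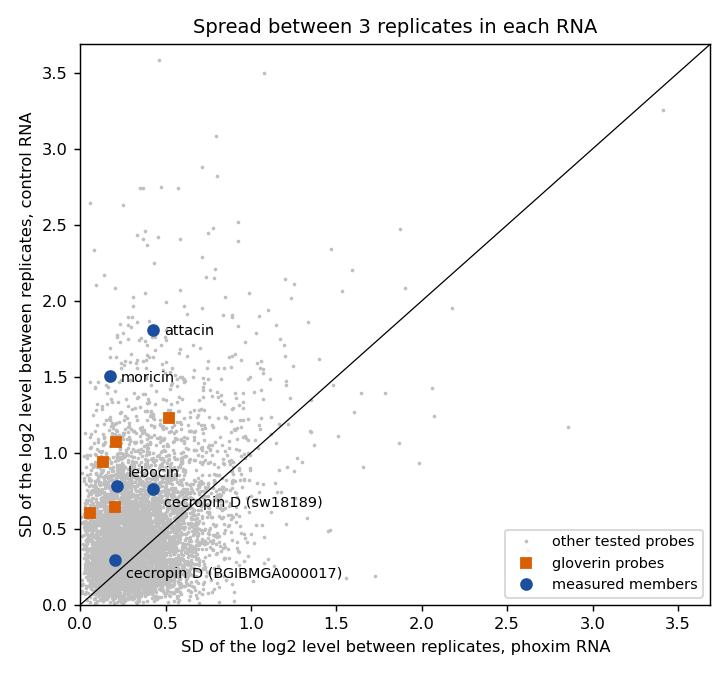
SD of the normalized log2 level between the 3 replicates in phoxim RNA (horizontal axis) and in control RNA (vertical axis) for each tested probe, with members in blue, gloverin probes in orange and the line of equal SD. Attacin and moricin lie far above the line, at 1.81 and 1.50 in control RNA.

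The gloverins, glycine-rich antibacterial proteins of moths, are the peptides most like these in function. Of the members, 1 of 5 was below 0 on all 3 arrays, against 5 of 5 gloverin probes and 17.1% of all tested probes. All phoxim levels were below all control levels in 1 of 5 members, 5 of 5 gloverin probes and 6.19% of all tested probes. With replicate 2 as labelled both counts were 0 of 5 for the members and 0 of 5 for the gloverin probes, beside 9.51% and 3.05% of tested probes. The gloverin probe sw01773 was above background in phoxim RNA on 2 of 3 arrays. On replicate 2 it read 161 in phoxim RNA, under the Cy3 limit of 307.1, and 112 in control RNA. There sw01773 and BGIBMGA000017 passed the filter through control RNA only. Their place in the header-order counts thus rests on a phoxim level not above background. On replicate 1 the median log2 ratio was 0.44 for the members and -1.001 for the gloverin probes. On replicate 2 it was -0.57 for the members and -1.66 for the gloverin probes, and on replicate 3 it was -1.35 for the members and -2.47 for the gloverin probes. The order of the arrays, from replicate 1 down to replicate 3, was therefore the same in both sets of medians. In the labelled order the medians on replicate 2 were 0.57 for the members and 1.66 for the gloverin probes. Both sets were then highest on replicate 2 and lowest on replicate 3. All 5 gloverin probes also had the larger SD in control RNA, with medians of 0.20 in phoxim RNA and 0.94 in control RNA. With replicate 2 as labelled this held for 4 of 5, with medians of 0.85 in phoxim RNA and 1.28 in control RNA. The difference between the sets was not tested, and gloverin probes may read each other's transcripts.

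Most probes for signalling genes upstream of the peptides were too dim to be tested, as were most gene probes of the arrays. Of 41 probes for Toll and Imd signalling, recognition proteins and lysozymes, found by wording and not curated, 8 were tested, beside 6154 of 23229 gene probes. Of the 41, 19 were above background in no sample, and the share over all gene probes is not given here. None of 10 probes whose description names Toll was tested, nor any of 6 for Relish, Dorsal or NF-kappa-B. None of the 8 tested probes passed, and the median of their means was -0.16. In the header order 1 (LOC692372) was below 0 on all arrays, beside 17.1% of all tested probes, and 0 were above 0, beside 18.2%. With replicate 2 as labelled LOC692372 was above 0 on that array. The 4 with the smallest p-values follow. A peptidoglycan recognition protein (LOC692372) had log2 ratios of -0.98, -0.11 and -1.21 (limma, adjusted p = 0.455). Scolexin (LOC100101171), a bacteria-induced serine protease homologue described in the tobacco hornworm, had -0.78, 0.003 and -0.81 (limma, adjusted p = 0.555). With replicate 2 as labelled scolexin was below 0 on all arrays, though very near 0 on replicate 2. A probe matched to Pelle, the kinase of the Toll pathway (sw07930), had 0.06, -0.46 and -0.24 (limma, adjusted p = 0.817). A beta-1,3-glucan recognition protein (sw00042) had 0.88, -0.32 and -1.34 (limma, adjusted p = 0.866). That was the same order of arrays as moricin in the header order, but not with replicate 2 as labelled. Lysozyme (Lysp), which cleaves bacterial walls, had 0.10, 0.35 and -0.50.

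Among tested probes outside the members, the 5 whose ratios on the 3 arrays lay nearest to the member medians were taken by Euclidean distance. Their distances were 0.15 to 0.21 on the log2 scale over 3 arrays. They included a serine proteinase-like protein (LOC733001) with log2 ratios of 0.36, -0.70 and -1.41, and fumarylacetoacetate hydrolase (Faah), an enzyme of tyrosine breakdown, with 0.34, -0.49 and -1.51. The other 3 (sw17818, sw04203 and sw19472) carry no description in the files. None of the 5 passed the test, with adjusted limma p-values of 0.603 to 0.714.

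Marker lists of tissues were matched by wording and hold some loose matches, such as an NADH dehydrogenase subunit (sw06523) in the fat body list and a DNA repair protein (sw14409) in the hemocyte list. Their medians differed between the arrays. The fat body list, meant for storage proteins, 30K lipoproteins, lipophorins and transferrin, had 35 of 53 probes tested, and its summed level was 535910 to 741338 in phoxim RNA and 454805 to 663308 in control RNA. Hemocytes, which also make antimicrobial peptides, were represented by 9 tested of 32 probes, with medians of 1.36, -0.29 and -0.02 on replicates 1, 2 and 3 and summed levels of 17650 to 27987 in phoxim RNA and 15698 to 28563 in control RNA. In the header order 2 of these 9 probes were above 0 on all arrays, beside 18.2% of all tested probes, and 2 below, beside 17.1%. The loose match sw14409 is among the 2 above. The muscle list had 25 tested of 51 probes, medians of 2.43, 0.07 and 0.75, and summed levels of 95312 to 157752 in phoxim RNA and 30741 to 98196 in control RNA. In the header order 13 of its 25 tested probes were above 0 on all arrays and 1 below. Of the 35 tested fat body probes 8 were above and 2 below, beside the same shares of all tested probes. No tested epidermis, midgut or silk gland probe was above 0 on all arrays, and 1 midgut probe was below. The epidermis list (20 tested of 90 probes) had medians of 0.34, -0.43 and 0.29, and the midgut list (13 of 90) had -0.04, 0.00 and 0.48. Of the silk gland list, 2 of 10 probes were tested. Replicate 1, on which attacin, moricin, lebocin and sw18189 were above 0, had the highest muscle, hemocyte and fat body medians. The fat body medians were 0.74, -0.21 and 0.23 on replicates 1, 2 and 3. In the header order replicate 1 was also highest for the epidermis, silk gland, gloverin and Toll and Imd lists and for all tested probes. The midgut median was highest on replicate 3. The part of tissue content in the members' values was not tested.

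**Figure D4:**
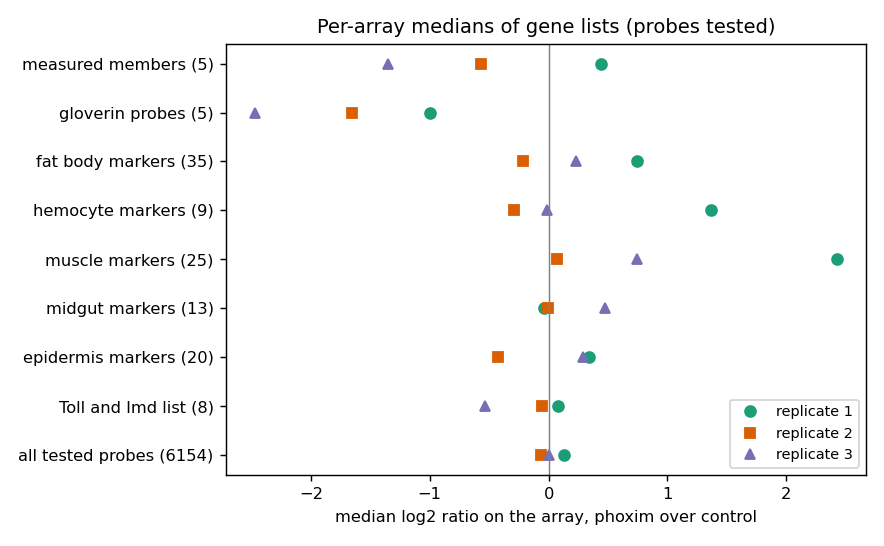
Median log2 ratio of phoxim over control on each array (horizontal axis) for the 5 measured members, the gloverin probes, tissue marker lists, the Toll and Imd list and all tested probes, with the number of tested probes in brackets. The members run from 0.44 on replicate 1 to -1.35 on replicate 3, and the muscle list stands at 2.43 on replicate 1.

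The authors' deposited log2 ratios gave the same pattern. They were 0.37, -2.49 and -3.01 for attacin, 0.56, -0.69 and -2.12 for moricin, and 0.04, -1.12 and -1.67 for lebocin on replicates 1, 2 and 3. For cecropin D they were -1.73, -0.27 and -1.35 at BGIBMGA000017 and 1.24, 0.02 and -0.29 at sw18189. The sign on each array was that of the values above, except at sw18189 on replicate 2, where both values were near 0. For cecropin E the deposited ratios were 0.18, -0.33 and 4.03.

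**Figure D5:**
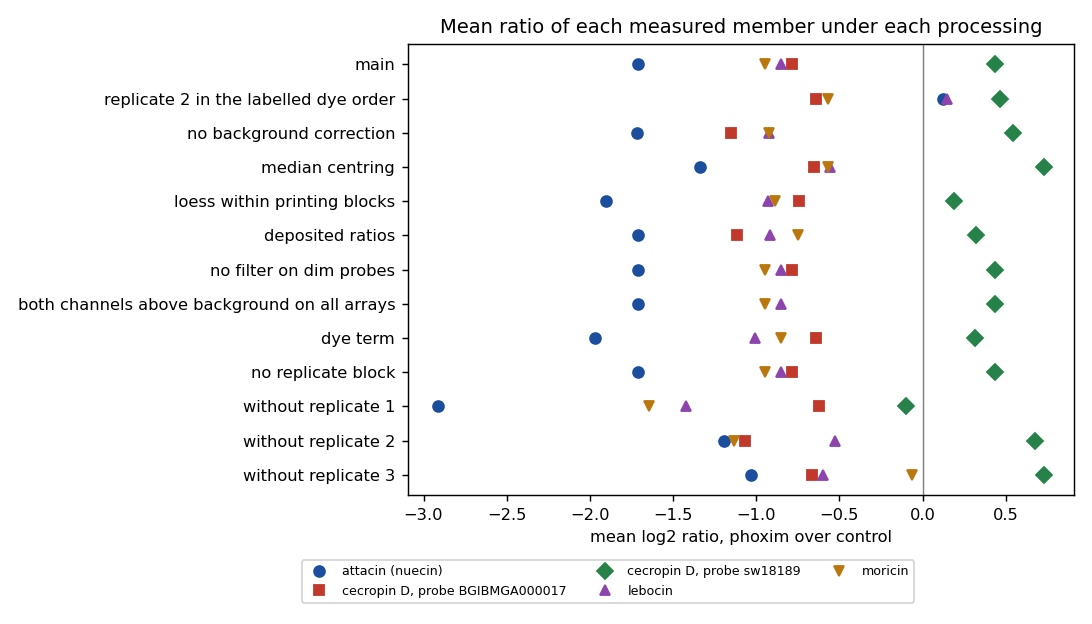
Mean log2 ratio of phoxim over control (horizontal axis) of each measured member under the main processing and 12 alternatives (vertical axis). Attacin ranges from -2.91 without replicate 1 to 0.12 with replicate 2 as labelled, and BGIBMGA000017 from -1.15 to -0.62.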

How the data were processed

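RNA of phoxim-fed and control larvae was hybridised to 3 two-colour arrays after T7 amplification and Cy5 or Cy3 labelling, per the labels' protocols. The deposited intensity values of both channels were whole numbers, some below 0, and were treated as background-subtracted; no source used here names the scanner. The deposited ratio column is phoxim over control per the file headers, and the deposited log2 value table differs from its log2 by at most 5.0e-09; how the authors centred it is not stated. The intensities were corrected with normexp (offset 50), normalized by loess within each array with control spots at weight 0, and turned to phoxim over control by the dyes in the file headers. Mean ratios were tested against 0, two-sided, with limma 3.58.1 (lmFit, eBayes) in R 4.3.3, Benjamini-Hochberg adjustment and a threshold of 0.05. The array pairs the RNAs and acts as the block. Levels per RNA were taken after loess and Aquantile. No member spot reached 99% of its channel's maximum. The fit was run on simulated data with larger mean ratios and mostly smaller spread than those of the members. That run does not show whether changes like theirs could be called. The number of arrays limits the precision.

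The members, gene lists and tests were chosen with earlier results of these data known. Every member was named. Of the pathway list the 4 measured probes with the smallest p were named, and lysozyme (Lysp) and the gloverins were added after their values were seen. Alternatives were the labelled dye order, background correction, normalization, the filter on dim probes, a dye term, no pairing and leaving out each array.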

Additional observations from a re-analysis of the deposited data

Results flagged for a closer look

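The cecropin E probe lay outside the test because its signal did not pass the filter on dim probes, yet its phoxim intensity on replicate 3 was 718, against 68 in the control RNA of the same array and a background limit of 31.8 in that channel. The phoxim intensities of replicates 1 and 2 were 54 and 83. It drew attention as a signal in a probe that no comparison used. A single spot on 1 array has no replicate check, and the reading was not tested.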

How the results depend on the processing

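Under the 12 alternatives, 0 probes and 0 members had an adjusted limma p under 0.05, with 297 to 1869 probes at an unadjusted p under 0.05. Of 59 member means, 56 kept their sign. The labelled dye order of replicate 2 turned attacin to 0.12 and lebocin to 0.15, and the member median to 0.12 from -0.85, since that array's ratios change sign by construction. Leaving out replicate 1 turned sw18189 to -0.10, and it was 0.73 without replicate 3. The member median was -1.42 to -0.60 with each array left out, and moricin was -1.64 to -0.06. Under median centring the median of all tested probes was 0.24, and the member median lay 0.81 below that. With a dye term the adjusted p of the members was 0.788 to 0.872. The fit with no replicate block gave the same means, with attacin at an adjusted p of 0.536, and called no probe. Members below 0 on every array numbered 1 in the main processing, 0 with the labelled order and 5 without replicate 1. Beside them stood 17.1%, 9.51% and 33.7% of tested probes. With both channels above background the count was 0 of 4, since that filter removed BGIBMGA000017. Counts by array were not made for the dye term or without pairing. The BGIBMGA000017 probe and cecropin E are limited by signal over background.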
